A study of Mus musculus with 6 samples.

Results

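Levels of 9 interferon-stimulated genes were followed in mouse embryonic stem cells (ESCs) that had received lentiviral short hairpin RNAs: Isg15, Ifit1, Ifit3, Ifitm1, Ifitm2, Ifitm3, Bst2, Irf1 and Irf7. They were chosen by name and are 9 of the 21058 genes in the deposited tables. Each gene was represented by the RefSeq transcript with the most reads summed over all libraries, out of 12 transcripts that carry these names. A gene was called expressed when its RPKM (reads relative to exon length and sequencing depth) in the GFP library was at least 1, and 6 of the 9 passed: Isg15, Ifitm1, Ifitm2, Ifitm3, Bst2 and Irf1. The other 3 (Ifit1, Ifit3 and Irf7) lay under that level.

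The cells were the V6.5 line (C57BL/6-129), grown on irradiated mouse embryonic fibroblasts and then for a passage on gelatin without them. There were 6 RNA-seq libraries, each from a different hairpin. GFP was the control and had 1 library, as did Smc1 (SMC1 here), which encodes a subunit of cohesin. CapH2 (CAPH2 here, encoded by Ncaph2 and a subunit of condensin II) had 2 libraries, and so did Smc2, which encodes a subunit of both condensins. The cells of all 6 libraries received virus in 8 µg/ml polybrene and then puromycin, first at 0.5 and then at 1 µg/ml for 48 hours each according to the labels, while the methods of the paper state a higher concentration. The GFP library is therefore infected and selected too. No uninfected library was analysed here, so what the virus itself did to these genes cannot be told apart from their resting level. The paired libraries of CAPH2 and of SMC2 are different hairpins in 1 cell line. They were the only replicates. A p-value for CAPH2 against SMC2 sets the group difference against the spread between hairpins of a group. Differences between hairpins and between libraries cannot be separated in that spread.

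Interferons are secreted proteins that cells make after sensing foreign nucleic acid. Type I interferon binds the receptor pair Ifnar1 and Ifnar2, the kinases Jak1 and Tyk2 are activated, and a complex that holds Stat2 and Irf9 binds the interferon-stimulated response element (ISRE) of its target genes. Interferon gamma signals through Ifngr1, Ifngr2, Jak1 and Jak2, and its target genes carry the gamma-activated site (GAS). Pluripotent stem cells are known for a weak response to interferon and for carrying some antiviral genes, among them Ifitm genes, at a high level without it.

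The response elements found in the promoters of the members are shown first. RefSeq promoter sequences (GRCm38.p6, from 250 bases before to 50 bases after the transcription start) were found for all 9 members. The ISRE core (TTTC, any 2 bases, TTTC), searched on both strands, was present in 1131 of 32851 mouse promoters (3.44%) and in the promoters of 6 of the 9 members. The GAS letters TTCNNNGAA were present in 2726 promoters (8.3%) and in those of 3 members (Bst2, Ifitm3 and Irf1). The promoters of Ifitm1 and Irf7 held neither pattern in this window, which covers these letters only. The stretches below read 5′ to 3′ on the strand of the gene, with the matched letters in capitals. Overlapping matches make 1 run of capitals, and a match on the opposite strand appears as its reverse complement.
Isg15: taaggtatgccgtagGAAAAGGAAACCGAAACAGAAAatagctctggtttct
Ifit1: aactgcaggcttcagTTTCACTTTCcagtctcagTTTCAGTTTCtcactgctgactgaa
Ifit3: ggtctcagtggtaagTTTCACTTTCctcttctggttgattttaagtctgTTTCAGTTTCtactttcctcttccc
Ifitm2: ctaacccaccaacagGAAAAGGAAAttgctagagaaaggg
Bst2: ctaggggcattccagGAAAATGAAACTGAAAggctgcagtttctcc
Irf1: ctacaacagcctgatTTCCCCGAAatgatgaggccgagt

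The Isg15 stretch (chr4:156200860-156200911, minus strand) holds 3 overlapping ISRE cores. The Ifit1 stretch (chr19:34640770-34640828, plus strand) and the Ifit3 stretch (chr19:34583358-34583431, plus strand) hold 2 separate cores each. The Bst2 stretch (chr8:71537572-71537617, minus strand) holds 2 overlapping cores, and the Ifitm2 stretch (chr7:140955983-140956022, minus strand) holds 1. The capitals of Irf1 (chr11:53769909-53769947, plus strand) mark a GAS instead. The cores of Ifitm3 lie after its transcription start and are not printed. The number of cores did not order the members by RNA, as the levels below show. Isg15 held 3 cores at an RPKM of 2.09 in GFP, and Ifit1 and Ifit3 held 2 each and were near 0. Bst2 and Ifitm3 also held 2 each, at 149 and 364, while Ifitm1 held none at 327. No binding of a factor was measured in these libraries.

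The RPKM values rest on 18823247 to 23324537 reads per library. The pluripotency markers Pou5f1, Sox2, Nanog and 5 others were present in every library, with a summed RPKM of 3738 in GFP, 2074 with SMC1 and 3116 to 3302 with CAPH2 and SMC2. The 9 fibroblast markers with an entry summed to an RPKM of 51.0 in GFP, 110 with SMC1, 82.2 with CAPH2 #1 and 54.9 to 63.7 in the others, with Lum at 0 in both CAPH2 libraries. The 6 macrophage markers summed to 8.22 with SMC1 and 14.2 to 18.2 elsewhere, with Ptprc at 0 in 2 libraries and Emr1 at 0 in 2. The lower sum with SMC1 was that of Cd68 (16.2 in GFP, 4.49 with SMC1), while Lyz2 (1.06 and 3.20) and the other 4 were above GFP there at low levels. The 8 primitive endoderm markers summed to between 18.7 and 21.9, but with SMC1 Lama1 was lower (13.1 in GFP and 6.47) and Dab2 (2.03 and 5.52) and Gata4 (2.37 and 3.59) were higher. The 5 germ cell markers summed to 61.4 in GFP, 21.6 with SMC1 and 45.5 to 51.7 in the others. With SMC1 Prdm1, Dppa3 and Prdm14 were at least 1.5-fold lower, while Ddx4 was at least 1.5-fold higher. The targeted transcripts were lower in their own libraries: Smc1a had an RPKM of 36.1 in GFP and 14.4 with SMC1, Ncaph2 had 80.2 in GFP against 16.9 and 27.9 with CAPH2, and Smc2 had 26.6 in GFP against 18.8 and 19.1 with SMC2. In these bulk libraries a smaller number of cells of a type and less RNA per cell cannot be told apart. The parts of cell type and of each marker list in the results were not tested.

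The Ifitm genes encode small membrane proteins that block the entry of enveloped viruses. Ifitm1 and Ifitm3 were the members with the highest RPKM in the GFP library, and all 3 Ifitm members had their lowest level after the SMC1 hairpin. Ifitm1 (NM_001112715, mm9 chr7:148153975-148155726, plus strand) had an RPKM of 327 in GFP, 52.3 with SMC1, 176 with CAPH2 #1, 228 with CAPH2 #2, 225 with SMC2 #1 and 213 with SMC2 #2. GFP was the highest and SMC1 the lowest library, and the condensin hairpins lay between them with overlapping ranges. In the SMC1 library 16.0% of the GFP level was left (95% exact binomial interval 14.8 to 17.3, which like every interval given here covers counting error only), a log2 change of -2.64. The log2 changes with the other hairpins were -0.90, -0.52, -0.54 and -0.62 in the order above.

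Ifitm2 (NM_030694, chr7:148140738-148141860, minus strand) had an RPKM of 90.0 in GFP and 29.1 with SMC1. It had 59.8 and 72.0 with the CAPH2 hairpins and 76.1 and 65.2 with the SMC2 hairpins. The order of the libraries was again GFP highest and SMC1 lowest, and 32.3% was left with SMC1 (28.6 to 36.4). Ifitm3 (NM_025378, chr7:148195489-148196643, minus strand), which restricts influenza virus, had an RPKM of 364 in GFP, 162 with SMC1, 318 and 290 with CAPH2, and 323 and 315 with SMC2. With SMC1 44.5% was left (42.2 to 46.8), and with the condensin hairpins between 79.8% and 88.7%. The intervals of all 3 genes excluded no change in each of the 5 knockdown libraries. They are narrower than the spread between libraries, since counts within a pair differed by more than counting error. The chi-square per degree of freedom between the libraries of a pair was 7.40 for CAPH2 and 5.68 for SMC2. The share of all transcripts whose interval excluded no change was not counted. Among the condensin hairpins the lowest value of Ifitm1 and of Ifitm2 was with CAPH2 #1, and that of Ifitm3 was with CAPH2 #2. Of all stretches of 36 bases in each transcript, 11.6% for Ifitm1, 19.2% for Ifitm2 and 13.8% for Ifitm3 were also found in transcripts of other genes. Reads that aligned to more than 2 places had been discarded, so these levels carry that uncertainty in every library.

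**Figure D1:**
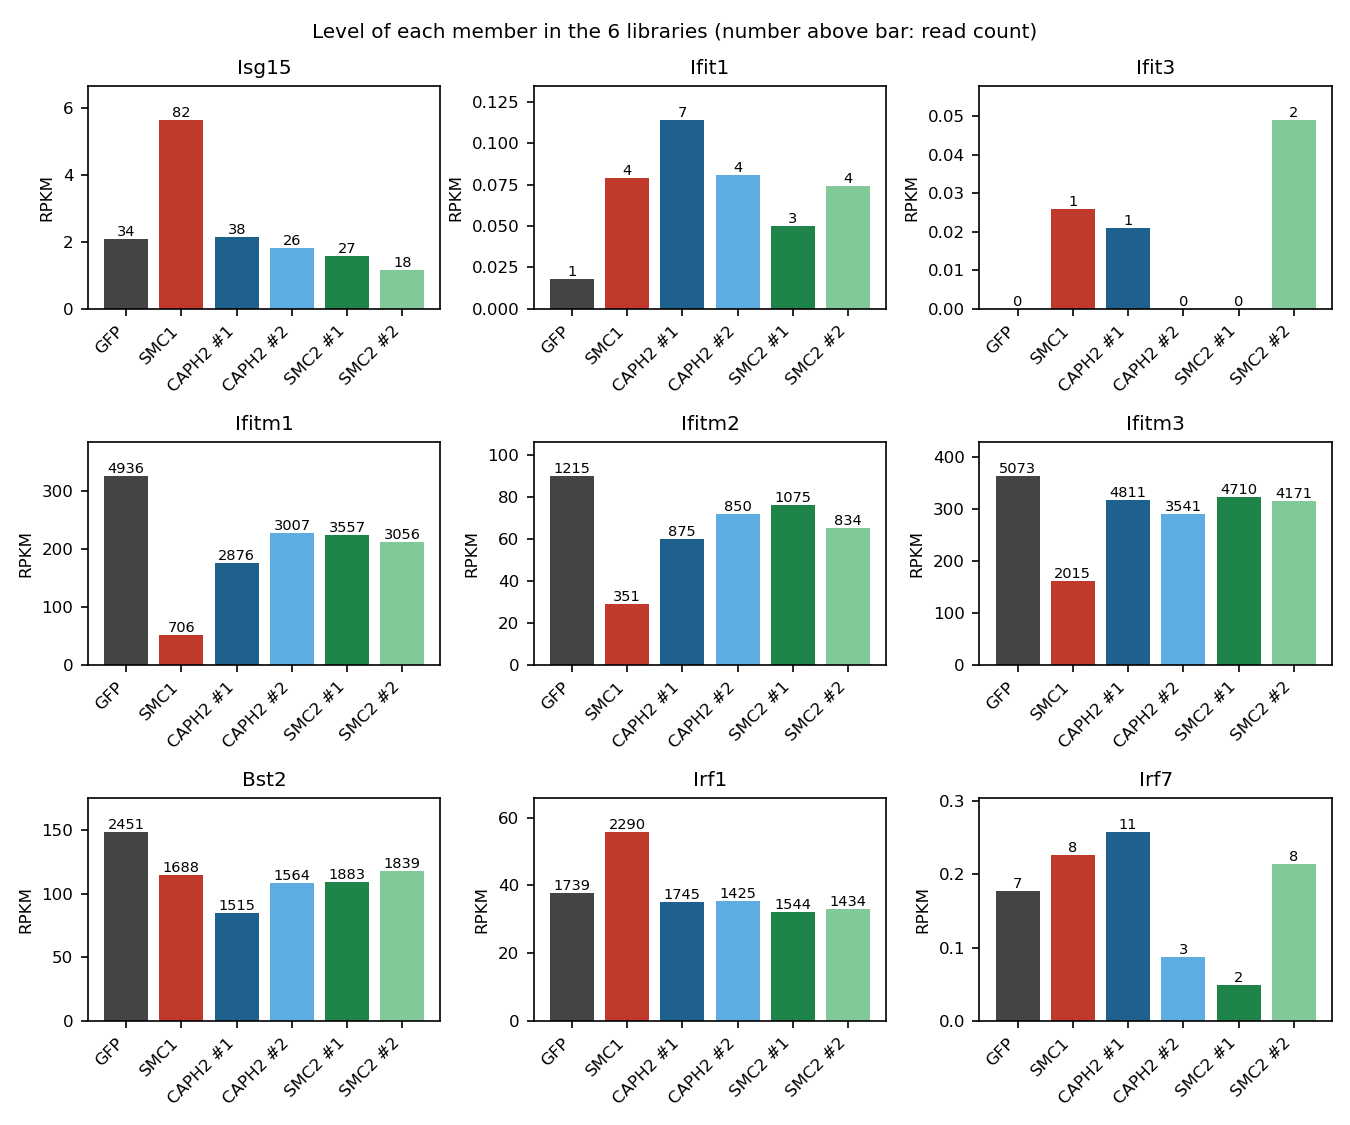
RPKM (vertical axis, linear from 0, with its own scale for each gene) of the 9 members in the 6 libraries, with the read count above each bar and 1 library per bar, so without error bars. Ifitm1, Ifitm2 and Ifitm3 have their lowest bar with SMC1, Isg15 and Irf1 have their highest bar there, and Ifit1, Ifit3 and Irf7 have at most 11 reads in any library.

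Bst2 (tetherin; NM_198095, chr8:74058161-74061336, minus strand) holds budding virus particles at the cell surface. It had an RPKM of 149 in GFP, 115 with SMC1, 84.8 with CAPH2 #1, 108 with CAPH2 #2, 109 with SMC2 #1 and 118 with SMC2 #2. GFP was again the highest library, but here the lowest was CAPH2 #1, with 57.0% of the GFP level left (53.5 to 60.8), and the SMC1 level (77.1% left) lay within the range of the condensin hairpins. Bst2 thus parted from the Ifitm genes in the library that was lowest. Its log2 changes were -0.38 with SMC1, -0.81 and -0.45 with CAPH2, and -0.45 and -0.34 with SMC2.

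Isg15 (NM_015783, chr4:155573533-155574927, minus strand) encodes a ubiquitin-like protein that is attached to other proteins during an interferon response. It was detected at a low level, with 34 reads in GFP, 82 with SMC1, 38 and 26 with CAPH2, and 27 and 18 with SMC2. The RPKM was 2.09, 5.64, 2.16, 1.83, 1.59 and 1.17 in the same order. SMC1 stood above the other 5 libraries, at 2.70-fold of the GFP level (1.79 to 4.15). The intervals of all 4 condensin hairpins included no change, the lowest being SMC2 #2 at a log2 change of -0.84 (-1.75 to 0.024).

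Irf1 (NM_008390, chr11:53583516-53590825, plus strand) encodes a transcription factor of the interferon response. It had an RPKM of 37.8 in GFP, 55.7 with SMC1, 35.0 and 35.4 with CAPH2, and 32.1 and 32.9 with SMC2. SMC1 was the highest library, at 1.47-fold of GFP (1.38 to 1.57), just under the 1.5-fold line used below, while all 4 condensin hairpins lay under GFP, with an interval that included no change for CAPH2 #2. The other 2 Irf1 transcripts in the tables had the same order of GFP and SMC1, at 35.6 and 52.7 for NM_001159396 and at 18.3 and 26.5 for NM_001159393. Part of the Irf1 span is also covered by the antisense gene Gm17334. The library kit does not mark strand, so reads of the 2 genes cannot be told apart there.

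Irf7, Ifit1 and Ifit3 were at or near the limit of detection. Irf7 (NM_016850), the factor that amplifies interferon production, had 7 reads in GFP, 8 with SMC1, 11 and 3 with CAPH2, and 2 and 8 with SMC2. Ifit1 (NM_008331), which binds foreign RNA, had 1 read in GFP, 4 with SMC1, 7 and 4 with CAPH2, and 3 and 4 with SMC2. Ifit3 (NM_010501), its partner, had 0, 1, 1, 0, 0 and 2 reads in the same order, and a count of 0 allows up to 3 reads. No difference between libraries was detectable at this depth for Ifit3. Of all stretches of 36 bases in the Ifit3 transcript, 59.6% were also found in I830012O16Rik, and the Ifit3 count is uncertain for that reason too. Ifnb1, the interferon beta gene that starts the type I response, had 0 reads in all 6 libraries, which again allows up to 3 in each.

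Set against the GFP library, the 6 expressed members moved in both directions after SMC1. At least 1.5-fold higher was 1 of them (Isg15), where 15.5% of all 15538 expressed transcripts were that much higher. At least 1.5-fold lower were 3 (Ifitm1, Ifitm2 and Ifitm3), where 17.3% of all transcripts were. The median log2 change of the 6 was -0.77, against -0.022 over all expressed transcripts. With single GFP and SMC1 libraries these differences have no replicate check. With CAPH2 #1, 0 members were that much higher (background 4.51%) and 3 were lower (Ifitm1, Ifitm2 and Bst2, background 6.29%), and the value of Ifitm2 lay close to the line. With CAPH2 #2 the counts were 0 and 0 (2.07% and 2.74%), and with SMC2 #1 also 0 and 0 (2.12% and 4.37%). With SMC2 #2 they were 0 higher (2.88%) and 2 lower (Isg15 and Ifitm1, 3.63%).

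The averages of the hairpins gave 2 lower members for CAPH2 (Ifitm1 and Bst2, background 3.74%) and 1 for SMC2 (Isg15, 3.53%), and 0 higher for either (3.06% and 2.26%). The median log2 change of the members was -0.39 with CAPH2 #1, -0.32 with CAPH2 #2, -0.32 with SMC2 #1 and -0.40 with SMC2 #2, against medians of all expressed transcripts between -0.026 and -0.0069. All 5 comparisons share the GFP library, which was the highest of the 6 libraries for Ifitm1, Ifitm2, Ifitm3 and Bst2. GFP was highest for 32.0% of all expressed transcripts. It was lowest for 0 expressed members, against 26.9% of transcripts. SMC1 was lowest for 3 members (37.5% of transcripts) and highest for 2 (34.3%).

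**Figure D2:**
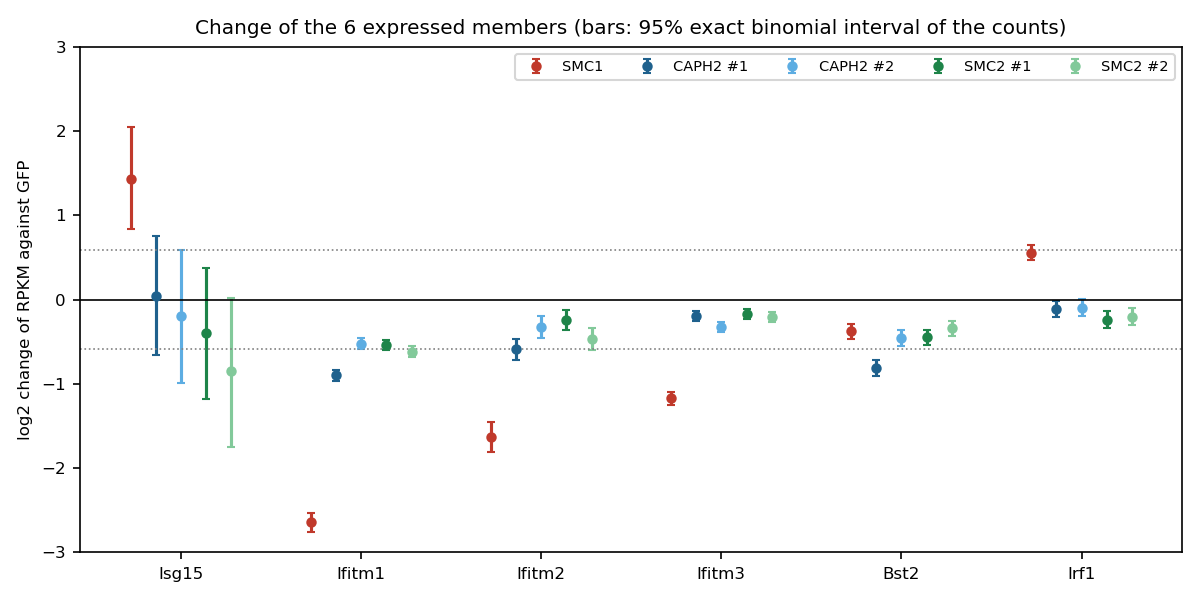
Log2 change of RPKM against the GFP library (vertical axis) for the 6 expressed members in the 5 knockdown libraries, with 95% exact binomial intervals of the counts as bars and dotted lines at 1.5-fold. The SMC1 points of Ifitm1, Ifitm2 and Ifitm3 (-2.64, -1.63 and -1.17) lie under every condensin point, those of Isg15 and Irf1 (1.43 and 0.56) lie above, and that of Bst2 (-0.38) lies among them.

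The changes depended on what the libraries were scaled to. ERCC synthetic RNAs had been added to RNA from 652000 cells per library, and scaling to their counts moved the median log2 change of all expressed transcripts to 0.84 for SMC1, 0.32 for the CAPH2 average and 0.58 for the SMC2 average, shifts of 0.86, 0.33 and 0.60 from the RPKM medians. Under this scaling Ifitm1 was at -1.78 with SMC1, Ifitm2 at -0.76 and Ifitm3 at -0.30, all still under GFP and under the shifted median. Ifitm3 was then no longer 1.5-fold lower, which left 2 lower members of the 3 with SMC1. Bst2 with SMC1 changed sign, from -0.38 to 0.49, which is still under that median. For the SMC2 average all 6 members lay at or above 0 by ERCC counts (from 0.0049 for Isg15 to 0.41 for Ifitm3) and under 0 by RPKM. Relative to the ERCC median of 0.58 they were all lower, as they were by RPKM. For the CAPH2 average, Ifitm1 (-0.41), Bst2 (-0.33) and Ifitm2 (-0.15) stayed under 0, and Isg15 (0.29), Irf1 (0.23) and Ifitm3 (0.090) did not. The scalings by edgeR's TMM and by DESeq2's size factors moved these medians by less than the ERCC scaling, to between -0.064 and -0.015.

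**Figure D3:**
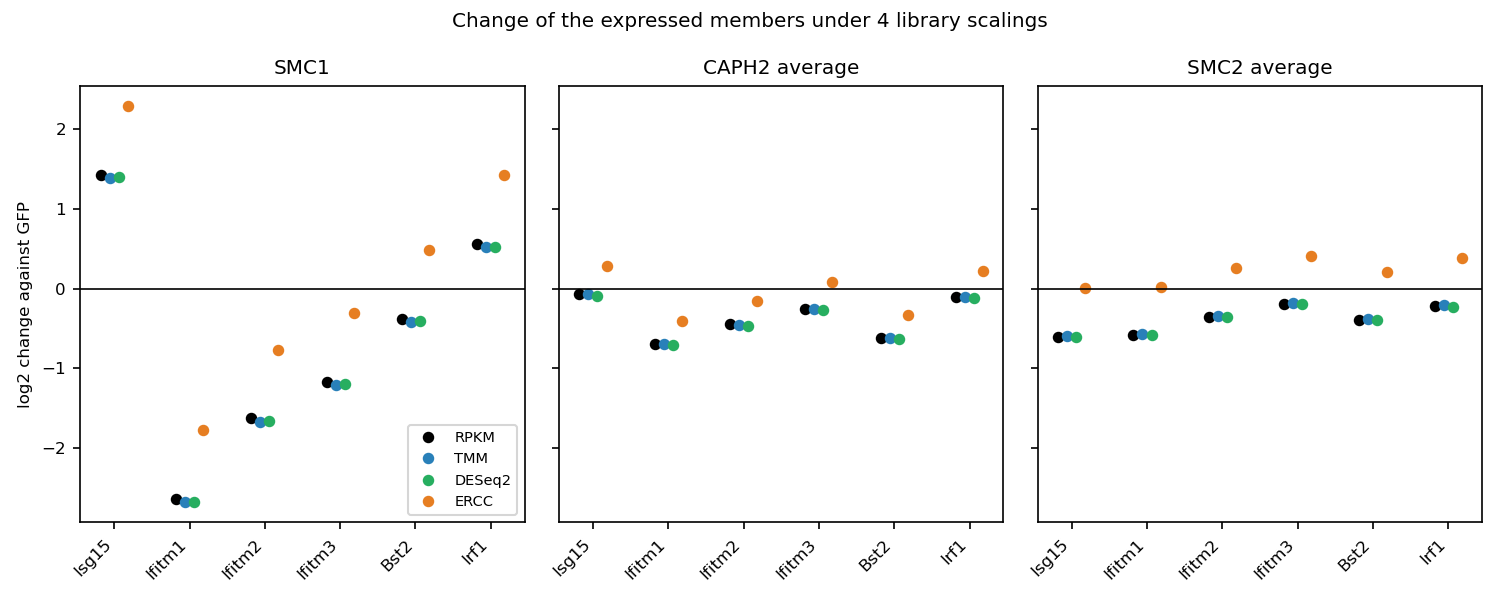
Log2 change against GFP (vertical axis) of the 6 expressed members for SMC1, the CAPH2 average and the SMC2 average, by RPKM, TMM, DESeq2 size factors and ERCC counts (colours). The ERCC points lie above the others throughout, Bst2 with SMC1 moves from -0.38 to 0.49, and Ifitm1, Ifitm2 and Ifitm3 with SMC1 stay under 0.

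CAPH2 against SMC2 is the comparison with 2 libraries on each side, and it asks whether the members differed between hairpins against a subunit of condensin II alone and hairpins against a subunit of both condensins. In edgeR's quasi-likelihood test 1 of 18245 transcripts (0.00548%) had a Benjamini-Hochberg adjusted p under 0.05, the target Smc2 itself, and 0 members did. Against GFP, Smc2 was at least 1.5-fold higher with each CAPH2 hairpin and lower by less than 1.5-fold with each SMC2 hairpin. Its difference between the groups thus holds a rise with CAPH2 as well as a fall with SMC2. Unadjusted p-values under 0.05 were found for 565 transcripts, and the DESeq2 test called 5 transcripts and 0 members. Bst2 came closest, higher with SMC2 by 0.24 ± 0.11 (log2 ± SE, unadjusted p = 0.0537, adjusted p = 1.00 in edgeR), with both SMC2 libraries above both CAPH2 libraries. The log2 difference of SMC2 minus CAPH2 was -0.52 ± 0.31 for Isg15 and -0.11 ± 0.072 for Irf1. These 2 genes and Bst2 were the members whose CAPH2 and SMC2 values did not overlap, 3 of the 6 in the test, where the groups of 30.6% of all transcripts did not overlap. SMC2 was above CAPH2 for 1 of them (13.3% of transcripts) and below for 2 (17.2%). Ifitm1 (0.13 ± 0.11), Ifitm2 (0.11 ± 0.11) and Ifitm3 (0.078 ± 0.068) were within the overlap of the groups. Without CAPH2 #2, Bst2 (0.43 ± 0.10, adjusted p = 0.00381 in edgeR) and Ifitm1 (0.33 ± 0.094, adjusted p = 0.0272) passed the threshold, along with 404 transcripts in all. That fit takes the spread of the lone CAPH2 #1 library from the SMC2 pair. Ifit1, Ifit3 and Irf7 had too few reads to enter the test.

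The steps before the members were read from the same libraries. Of 15 genes for the sensing of nucleic acid and the induction of interferon, 8 were expressed, and with SMC1 1 was at least 1.5-fold higher (Zbp1) and 1 lower (Mavs), beside 15.5% and 17.3% of all expressed transcripts, with a median log2 change of 0.25. Zbp1, a sensor of Z-form nucleic acid, had 76 reads in GFP, 145 with SMC1, 95 and 56 with CAPH2, and 102 and 94 with SMC2. Ddx58, which encodes the RNA sensor RIG-I, went the other way between the knockdowns: it had an RPKM of 8.57 in GFP and 6.29 with SMC1, but 12.2 and 11.2 with CAPH2 and 11.5 and 9.85 with SMC2. All 4 condensin libraries were above GFP for Ddx58 and SMC1 was below it. Tbk1, the kinase that activates Irf3, had 14.4 in GFP and between 17.3 and 19.4 in the 5 knockdown libraries. In each condensin library 0 of these 8 genes passed 1.5-fold in either direction.

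Of 13 genes for the interferon receptors and the JAK-STAT pathway, 12 were expressed. With SMC1, 4 were at least 1.5-fold higher (Ifngr1, Ifngr2, Jak2 and Socs1) and 4 lower (Tyk2, Stat2, Irf9 and Socs3), beside the same 15.5% and 17.3% of all transcripts, with a median of 0.38. Of the higher genes, 3 are the gamma receptor chains and a kinase of the gamma receptor, and 3 of the lower genes are the kinase Tyk2 and the type I partners Stat2 and Irf9. The type I receptor chains Ifnar1 (log2 change 0.41) and Ifnar2 (0.20) and the shared kinase Jak1 (0.49) were above GFP too, short of 1.5-fold. In the whole list 8 genes were above GFP with SMC1 and 4 below. Stat2 had an RPKM of 15.9 in GFP, 7.52 with SMC1, 10.7 and 12.4 with CAPH2, and 11.1 and 11.8 with SMC2, so that every knockdown was under GFP. Socs3, a feedback inhibitor of cytokine signalling and a target of LIF in ESCs, had 137 in GFP, 63.4 with SMC1, 95.2 and 107 with CAPH2, and 103 and 112 with SMC2. Jak2 had 1.93 in GFP and 4.64 with SMC1, above its range of 1.85 to 2.51 with the condensin hairpins. In each condensin library 0 of the 12 passed 1.5-fold.

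Of 44 other interferon-stimulated genes, 25 were expressed in GFP, and after SMC1 these had changes in both directions. In that library 7 were at least 1.5-fold higher (Oasl2, Gbp2, Irgm1, Dtx3l, Trim21, Cxcl10 and Tdrd7, background 15.5%) and 8 were lower (Oas1a, Oas2, Oas3, Oasl1, Xaf1, Trim25, Lgals9 and Pml, background 17.3%). A filter on the GFP library alone leaves out genes that are low there and high with SMC1, and lets in genes that pass only through GFP. With a filter on the mean RPKM over all 6 libraries, chosen after seeing the data, the counts were 9 higher and 6 lower of 25 (17.2% and 16.3% of all transcripts), with Gbp3 and Nmi added to the higher and Oas2 and Oasl1 dropped from the lower. Of the 8 lower genes, 4 belong to the 2′-5′ oligoadenylate synthetase family, while Oasl2 of the same family was among the higher. Cxcl10, a chemokine that draws T cells, had 28 reads in GFP, 174 with SMC1, 55 and 25 with CAPH2, and 40 and 35 with SMC2. Irgm1, a GTPase that acts against bacteria inside cells, had an RPKM of 4.61 in GFP, 27.5 with SMC1, 7.30 and 6.30 with CAPH2, and 5.44 and 5.83 with SMC2. For both genes SMC1 was far above the other 5 libraries. Oas1a, an enzyme that activates RNase L, had an RPKM of 7.66 in GFP, 1.05 with SMC1, 5.21 and 5.27 with CAPH2, and 4.80 and 5.30 with SMC2. As for Ifitm1, GFP was the highest library and SMC1 the lowest. With that filter, the counts past 1.5-fold were 4 higher and 1 lower with CAPH2 #1 (5.68% and 5.54% of all transcripts) and 2 and 1 with CAPH2 #2 (2.97% and 2.28%). They were 0 and 2 with SMC2 #1 (2.95% and 3.69%) and 0 and 0 with SMC2 #2 (3.86% and 3.15%). With the filter on GFP they were 3 and 2, 1 and 2, 0 and 3, and 0 and 1 in the same order.

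Some genes that were higher and some that were lower with SMC1 hold the ISRE core. It was found in 15 of the 36 genes of the list with a promoter entry, beside 3.44% of all promoters. Of the lower genes with an entry, Oas1a, Oas3 and Lgals9 held it, and Oasl1, Xaf1, Trim25 and Pml did not. Of the higher genes, Irgm1, Cxcl10, Gbp2, Trim21 and Tdrd7 (in 1 of its 3 promoters) held it, and Oasl2 and Dtx3l did not. The stretches of Oas1a (chr5:120907526-120907560, minus strand), the lowest with SMC1, of Irgm1 (chr11:48871421-48871465, minus strand) and Cxcl10 (chr5:92349078-92349117, minus strand), the highest, and of Gbp2 (chr3:142620589-142620628, plus strand) show it, with the core in capitals as before.
Oas1a: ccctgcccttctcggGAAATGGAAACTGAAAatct
Irgm1: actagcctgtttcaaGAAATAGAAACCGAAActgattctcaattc
Cxcl10: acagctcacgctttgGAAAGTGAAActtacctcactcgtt
Gbp2: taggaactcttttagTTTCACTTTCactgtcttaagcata

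Antigen presentation genes, which type I and gamma interferon both raise in many cells, were the pathway list whose changes past 1.5-fold after SMC1 all lay on 1 side. Of 14 genes 11 were expressed, 8 were at least 1.5-fold higher (B2m, H2-K1, H2-D1, Tap1, Tap2, Tapbp, Psmb8 and Psmb9) and 0 were lower, beside 15.5% and 17.3% of all expressed transcripts. H2-K1 and Tapbp lay just past the line, and 6 were higher under TMM or DESeq2 scaling. All 11 lay above GFP, with a median of 0.65. H2-D1, a class I heavy chain, had an RPKM of 6.58 in GFP and 22.1 with SMC1, against 5.36 to 6.27 with the condensin hairpins. It belongs to a family of near-identical genes, so its reads could be shared or lost. Psmb8, an immunoproteasome subunit, had 8.47 in GFP, 16.2 with SMC1, 6.56 and 8.82 with CAPH2, and 5.48 and 5.97 with SMC2. Tap1, a subunit of the peptide transporter, had 4.14 in GFP, 10.8 with SMC1, 9.10 with CAPH2 #1, 5.22 with CAPH2 #2, and 4.56 and 5.30 with SMC2. With CAPH2 #1, 1 of the 11 was at least 1.5-fold higher (Tap1) and 1 lower (H2-K1), beside 4.51% and 6.29% of all transcripts. In that library 9 of the 11 lay below GFP, with a median of -0.14. With SMC2 #1, 0 were higher and 1 lower (Psmb8), beside 2.12% and 4.37%. The counts were 0 and 0 with CAPH2 #2 (2.07% and 2.74%) and SMC2 #2 (2.88% and 3.63%). The fibroblast markers Col1a1, Col1a2 and S100a4 were at least 1.5-fold higher with CAPH2 #1 and with SMC1, and S100a4 also with SMC2 #1. Their part in the levels of the antigen presentation genes was not tested.

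**Figure D4:**
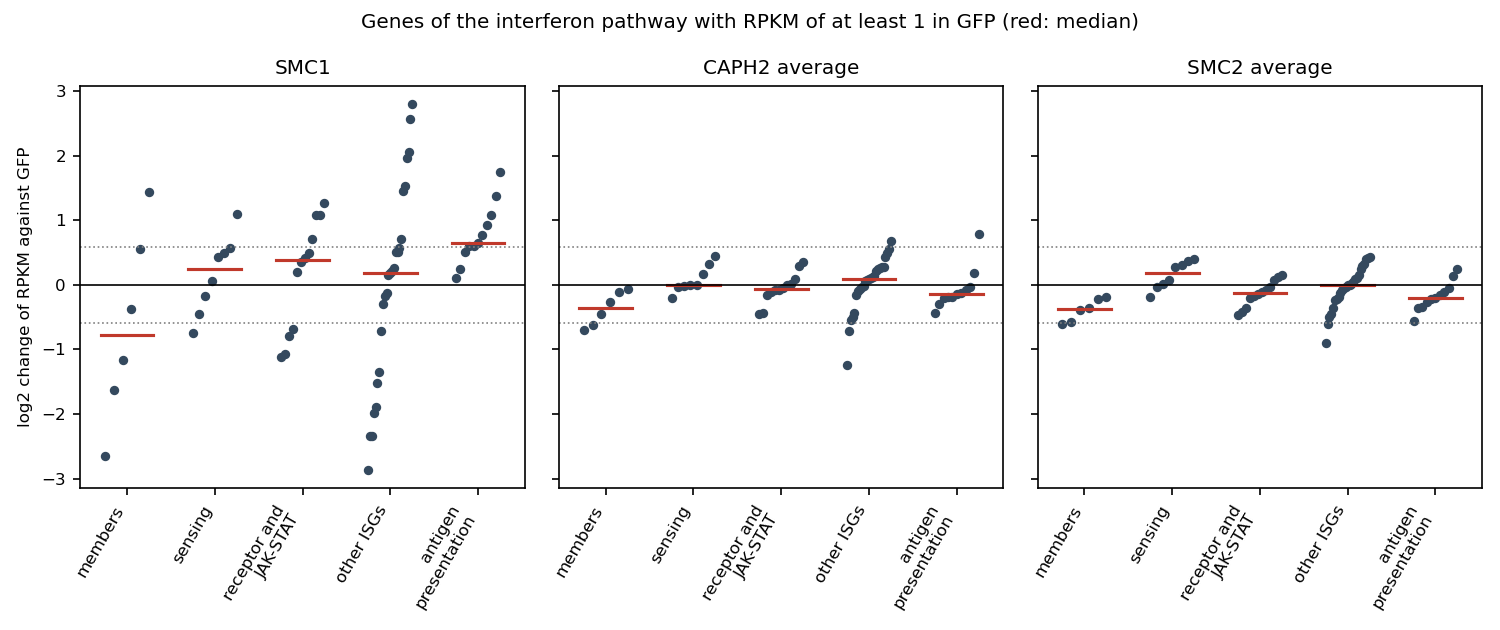
Log2 change of RPKM against GFP (vertical axis) of the expressed members and of the expressed genes of the 4 pathway lists, 1 point per gene in rising order, for SMC1, the CAPH2 average and the SMC2 average, with list medians in red and dotted lines at 1.5-fold. With SMC1 the other interferon-stimulated genes (other ISGs) run from -2.87 to 2.80 and antigen presentation genes all lie above 0, while most points of the condensin averages lie between the dotted lines.

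The 3 Ifitm members lie side by side on chromosome 7, and Ifitm5 in the same cluster had an RPKM of 4.06 in GFP, 1.10 with SMC1, 2.06 and 2.62 with CAPH2, and 3.07 and 2.83 with SMC2. Ifitm6 was under an RPKM of 1 in all libraries. Genes near the cluster were therefore read as well, in a window of 300 kb on each side of the start of Ifitm3 that was chosen after the values were seen. Of 35 genes in the window 25 were expressed, and 21 of these were not Ifitm genes. Of the 21, 10 were at least 1.5-fold lower with SMC1, where 17.3% of all expressed transcripts were, and 2 were higher (15.5%). Their median log2 change was -0.58, and the values ran from -2.41 (Ano9) to 1.31 (Sct). Sct had 14 reads in GFP and 31 with SMC1, and was above GFP in every knockdown library. Sigirr, a receptor that dampens interleukin-1 signalling, was at -2.30, Urah at -1.78, B4galnt4 at -1.34 and Pkp3, a desmosome protein, at -1.19. Ano9, Sigirr and Urah thus had lower log2 changes than Ifitm2 and Ifitm3. So did Scgb1c1 (-2.16), on 10 reads in GFP and 2 with SMC1. Irf7, which lies near the far end of the window, was too low to read.

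**Figure D5:**
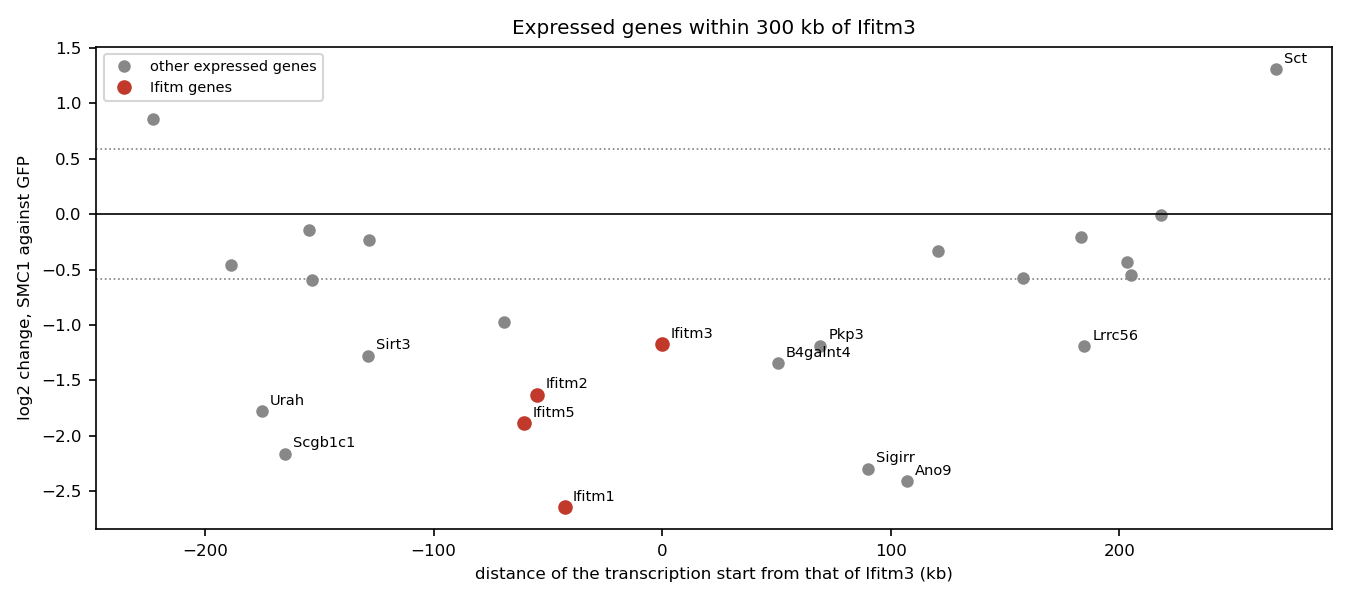
Log2 change with SMC1 against GFP (vertical axis) of the 25 expressed genes within 300 kb of Ifitm3, by distance of their start from that of Ifitm3 in kb, with Ifitm genes in red and dotted lines at 1.5-fold. The Ifitm genes lie between -2.64 and -1.17, and Ano9 (-2.41), Sigirr (-2.30) and Urah (-1.78) lie among them, while Sct (1.31) lies above.

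The genes whose profile over the 6 libraries was closest to a member's were found by the root mean square difference of log2 RPKM, each profile centred on its own mean, among 12263 genes with a mean of at least 50 reads. The value is in log2 units, and the same 6 libraries underlie every profile. Closest to Ifitm1 were Slc17a9 (0.072), Apoc1 and Ankrd35, and closest to Ifitm2 were Vill (0.053), Ubald2 and Gm7367. Closest to Ifitm3 were Sptbn4 (0.035), Slc25a43 and Sema4b. For Bst2 they included Lss (0.062) and Pimreg, and for Irf1 they were Gnas (0.017), Pctp and Stim1. None of the genes named here was another member or in a pathway list. Isg15 had too few reads for this comparison.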

How the data were processed

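RNA-seq of V6.5 ESCs was analysed in 6 libraries. Bowtie was used by the authors for alignment to mm9, with reads of more than 2 alignments dropped. The authors counted exonic reads with RPKM_count 2.3.5 and deposited raw counts for 26073 RefSeq transcripts and 92 ERCC RNAs. The deposited RPKM values are those counts scaled to exon length and library reads, without the ERCC RNAs. Log2 changes are RPKM ratios to GFP without a pseudocount, over transcripts with an RPKM of at least 1 in GFP, and intervals are 95% exact binomial. Hairpin RPKM values were averaged before the log2. CAPH2 and SMC2 were compared with edgeR 4.0.16 (TMM, quasi-likelihood) on transcripts that reached 10 counts in 2 or more libraries, which was tested on simulated counts, and with DESeq2 1.42.0 as an alternative. Symbols came from RefSeq for 25353 transcripts and from GENCODE overlap for 572, and 148 had none.

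The members and the 12 gene lists were chosen with earlier results of these data known. Named were all members, the 3 genes of each list with the largest mean absolute change and at least 50 counts, and the 3 closest profiles of each member, of which 1 gene is not reported here. Other list genes and genes of the Ifitm window were named after their values were seen. Changes against GFP have no test. Alternatives were other scalings, filters, folds, a pseudocount of 1, leaving out each hairpin, a replicate block and another reference. Python 3.11.15 was used otherwise.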

Additional observations from a re-analysis of the deposited data

Results flagged for a closer look

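Isg15 and Irf1 had knockdown groups on opposite sides of the GFP library. For Isg15 the SMC1 library was above GFP and both SMC2 libraries were below it, with log2 changes that differed by 2.05 between SMC1 and the mean of the SMC2 hairpins. For Irf1 the SMC1 library was above GFP and all 4 condensin libraries were below it, and the log2 changes differed by 0.66 from CAPH2 and by 0.78 from SMC2. None of these differences was tested, since SMC1 and GFP have 1 library each, and Isg15 rests on 18 to 82 reads per library. Groups of 1 or 2 libraries are too small to look for an outlying library.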

How the results depend on the processing

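Under ERCC scaling, 2 members were at least 1.5-fold higher with SMC1 in place of 1, where 68.0% of all transcripts were, and 2 were lower in place of 3 (4.54%). With the CAPH2 average 0 were lower (2 by RPKM) and with the SMC2 average also 0 (1), where 1.03% and 0.309% of transcripts were lower. For both averages 0 members were higher, where 17.7% and 48.6% of transcripts were. The sensing list then had 6 genes higher and 0 lower with SMC1 (1 and 1 by RPKM), and the receptor and JAK-STAT list 8 and 0 (4 and 4). The other interferon-stimulated genes had 16 higher and 6 lower (7 and 8). All these counts stand beside 68.0% higher and 4.54% lower over all transcripts. Isg15 with the SMC2 average reversed to 0.0049 and, in edgeR, Irf1 between SMC2 and CAPH2 reversed to 0.16. A filter of 1 count in place of an RPKM of 1 let Ifit1 in and gave 2 higher members with SMC1, 1 with CAPH2 and 1 with SMC2. Under that filter 24.3%, 9.14% and 8.16% of all transcripts were higher. A 2-fold line left 0 lower members with the CAPH2 average (0.579% of transcripts) and the SMC2 average (0.483%). The use of log2(RPKM + 1) left 0 with SMC2 (1.62%). The mean of the 4 condensin libraries as the reference, added after seeing the data, gave 2 higher members with SMC1 (Isg15 and Irf1). Under that reference 3 members were lower, where 11% of all transcripts were higher and 11% were lower. Leaving out 1 hairpin gave 0 lower members without CAPH2 #1 (2.74% of all transcripts) and 3 without CAPH2 #2 (6.29%). For SMC2 the lower members numbered 2 without SMC2 #1 (3.63%) and 0 without SMC2 #2 (4.37%).

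Calls between CAPH2 and SMC2 numbered 3 with DESeq2 size factors, 4 with ERCC scaling, 8 with a filter of 1 count and 5 in the DESeq2 test. Leaving out 1 hairpin gave 1 to 404 transcripts and 0 to 2 members. The 404 were found without CAPH2 #2, and 29 without CAPH2 #1. Without CAPH2 #2 Ifitm1 was at 0.33 and Ifitm2 at 0.25. Ifitm1 reversed to -0.050 and Ifitm2 to -0.022 without CAPH2 #1, and Ifitm2 to -0.0054 without SMC2 #1. The label numbers name hairpins and do not pair the libraries: deviations of same-numbered libraries correlated at 0.0488. With the number as a replicate block 15 transcripts and 0 members were called, and Bst2 had an adjusted p of 0.523 in edgeR. The cause of these shifts was not tested. The low counts of Isg15, Ifit1, Ifit3 and Irf7 limit what could be seen for them.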
